A study of Mus musculus with 16 samples.

Results

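Gene expression was compared between G1E-ER4 cells given 75 nM and G1E-ER4 cells given 50 nM beta-estradiol, with 2 libraries at each dose and all genes included. These 4 libraries were taken by their labelled dose from a series of 16 libraries at 8 doses (0, 12.5, 25, 50, 75, 100, 150 and 200 nM), and 10080 of the 23410 gene symbols in the count table had enough reads to be tested. G1E-ER4 is a mouse erythroid precursor line without endogenous GATA1 protein. It expresses a fusion of GATA1 with the estrogen receptor's ligand-binding domain, so that beta-estradiol sends the fusion protein into the nucleus. All cells, at every dose, carried the fusion and grew in Iscove's medium with fetal bovine serum, penicillin and streptomycin, mono-thio-glycerate, murine stem cell factor and erythropoietin. The libraries were made by Smart-seq2, which copies polyadenylated RNA along its length without keeping the strand or tagging single molecules. The exposure time is not given in the labels, and nothing in the labels says whether the replicates came from separate cultures, so the p-values measure the spread between these libraries, which may be technical. The series tests a single line, and no cells without the fusion are among the samples, so effects of beta-estradiol that do not pass through GATA1 cannot be told apart from effects of the fusion.

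GATA1 is a zinc-finger transcription factor that binds GATA motifs and is required for red cell formation. In erythroid precursors it works with KLF1, TAL1 and its cofactor FOG1 to switch on globin, heme and membrane genes, and it helps to shut down GATA2, KIT and MYC as cells mature. As maturation proceeds, cells fill with hemoglobin, rebuild their membrane, slow their growth and later clear their organelles.

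The 75 nM libraries held 14102898 and 13637105 counts, against 15121181 and 15265661 counts in the 50 nM libraries, within the range of 9393156 to 15802510 over the series. The replicates differed by more than counting noise at both doses, with a chi-square per degree of freedom of 1.71 at 75 nM and 3.82 at 50 nM. The 50 nM value was the highest of the 8 doses. The 45S ribosomal RNA precursor Rn45s took 12.2% and 11.9% of counts at 75 nM, against 10.1% and 9.63% at 50 nM. Of 15 erythroid markers, 10 were in the table under the listed symbols, and all 10 were above 1 CPM (a gene's count per 1000000 counts of its TMM-scaled library) at both doses, so the libraries carried the markers of their label. Their sum came to 10450 and 10560 CPM at 75 nM, against 6072 and 6268 CPM at 50 nM. The summed granulocyte and macrophage markers stayed below 1 CPM in all 4 libraries, and the lymphocyte, fibroblast and endothelial markers below 0.3 CPM. In a bulk sample, fewer cells of a type and less RNA per cell cannot be told apart.

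The first principal component of all 16 libraries held 82.3% of the variance and followed the dose. The 75 nM libraries lay at 6.22 and 5.70 on it, against -23.3 and -21.6 for the 50 nM libraries. On the second component, with 5.88% of the variance, the 75 nM libraries were the lowest of the series, at -20.06 and -20.11.

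**Figure D1:**
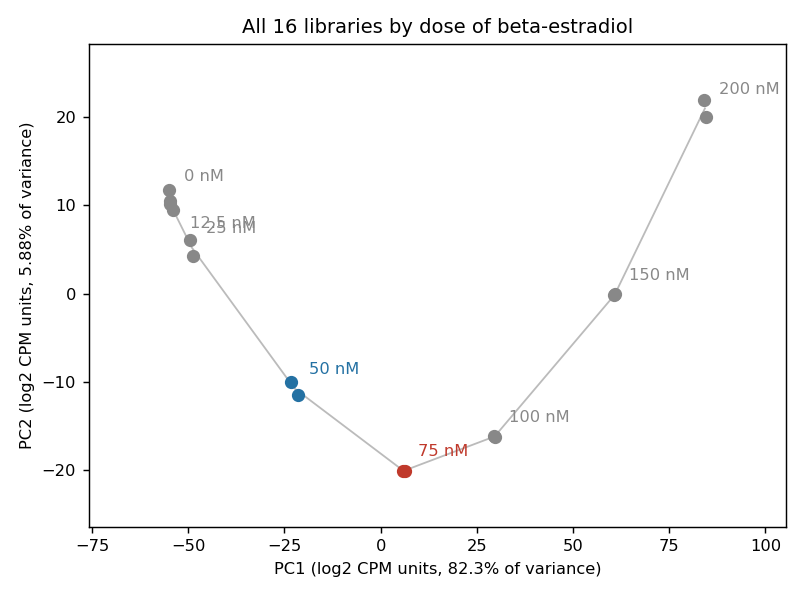
The first and second principal components of log2 CPM are plotted for all 16 libraries, with 2 points per dose, 75 nM in red, 50 nM in blue and a grey line through the mean of each dose. The 75 nM libraries sit at 6.22 and 5.70 on the first component, to the right of the 50 nM libraries at -23.3 and -21.6.

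In total, 1672 genes (16.6% of those tested) rose at 75 nM against 50 nM and 1588 genes (15.8%) fell, by edgeR's quasi-likelihood test at a Benjamini-Hochberg adjusted p under 0.05. Together they made 32.3% of the genes tested. Most changes were small: the median fold was 1.32 among genes that rose and 1.19 among genes that fell. Of the genes called, 527 rose at least 1.5-fold (5.23%) and 127 fell at least 1.5-fold (1.26%). The median log2 fold change over all genes tested was 0.0022. The split depended on the scaling: with library size alone, 1322 genes rose and 2166 fell, which put 37.9% of the calls on the higher side, against 51.3% with TMM scaling. The median over all genes was then -0.0468 on the log2 scale. With DESeq2, 1206 genes rose and 1399 fell, which put 46.3% of the calls on the higher side.

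The gene with the highest fold change among those of at least 20 CPM was Hbb-bh1, the embryonic beta-like globin, at chr7:103841637-103843164 on the minus strand of GRCm38. It had 107 and 104 CPM at 75 nM, against 22.02 and 22.05 CPM at 50 nM, a log2 fold change of 2.26 ± 0.06 (SE; edgeR adjusted p = 3.65e-26). Its 4 libraries formed 2 tight groups that did not overlap. Tmem184a, which codes for a multi-pass membrane protein, had 86.5 and 85.5 CPM at 75 nM, against 25.8 and 26.9 CPM at 50 nM (log2 1.71 ± 0.06). Heatr2, a factor for assembling dynein arms, had 30.4 and 30.6 CPM at 75 nM, against 9.71 and 9.47 CPM at 50 nM (log2 1.67 ± 0.15). Both rose with little spread inside either dose. Ank, which moves pyrophosphate out of cells, had 48.2 and 51.7 CPM at 75 nM, against 16.8 and 15.9 CPM at 50 nM (log2 1.61 ± 0.09). Il9r, the receptor for interleukin 9, had 24.2 and 24.8 CPM at 75 nM, against 9.33 and 8.91 CPM at 50 nM (log2 1.42 ± 0.11). Fam214b was likewise separated, with 22.6 and 23.98 CPM at 75 nM and 8.31 and 8.97 CPM at 50 nM (log2 1.43 ± 0.11).

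In a second set of genes with a high fold change, libraries of the same dose lay farther apart. Rnf187, a RING-type ubiquitin ligase, had 332 and 322 CPM at 75 nM, against 52.04 and 134 CPM at 50 nM (log2 1.81 ± 0.40; edgeR adjusted p = 0.00829). Lamp1, the main glycoprotein of the lysosomal membrane, had 423 and 408 CPM at 75 nM, against 98.2 and 146 CPM at 50 nM (log2 1.76 ± 0.25). Cited4, a partner of the CBP and p300 coactivators, had 246 and 219 CPM at 75 nM, against 67.8 and 96.4 CPM at 50 nM (1.5004 ± 0.25 on the log2 scale). In Rnf187, Lamp1 and Cited4 the higher 50 nM library was replicate 2. Donson, which protects replication forks, had 102 and 94.5 CPM at 75 nM, against 28.8 and 45.6 CPM at 50 nM (log2 1.40 ± 0.28). Rragd, a Rag GTPase that signals amino acid supply to mTORC1 at the lysosome, had 39.6 and 32.03 CPM at 75 nM, against 10.2 and 11.7 CPM at 50 nM (log2 1.71 ± 0.23), so its spread was wider at 75 nM. Tubb1, the beta-tubulin of platelets, had 20.7 and 22.03 CPM at 75 nM, against 8.12 and 5.42 CPM at 50 nM (log2 1.66 ± 0.14). Its higher 50 nM library was replicate 1. When only the 4 libraries of these doses were fitted, Rnf187, Lamp1, Cited4 and Donson lost their calls, with edgeR adjusted p of 0.176, 0.0502, 0.0538 and 0.0734, while their fold changes stayed within 0.01 of those above on the log2 scale. Leaving out 50 nM replicate 1 or replicate 2 moved the Rnf187 log2 fold change over a range of 1.29 to 2.64.

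Among the genes that fell, Lgals9, which codes for the sugar-binding protein galectin-9 and lies at chr11:78962974-78984946 on the minus strand, had the lowest fold change of those of at least 20 CPM. It was at 29.4 and 32.6 CPM at 75 nM, against 75.9 and 74.2 CPM at 50 nM (log2 -1.28 ± 0.06; edgeR adjusted p = 5.93e-22). Car1, carbonic anhydrase 1, at chr3:14766216-14808368 on the minus strand, had 406 and 419 CPM at 75 nM, against 996 and 987 CPM at 50 nM (log2 -1.27 ± 0.03). These were the only named genes below -1 on the log2 scale, and in both the libraries of a dose lay close together. Fam198b had 14.1 and 14.1 CPM at 75 nM, against 22.6 and 26.3 CPM at 50 nM (log2 -0.80 ± 0.11). Etv5, an ETS-family transcription factor, had 28.5 and 26.4 CPM at 75 nM, against 44.99 and 49.6 CPM at 50 nM (log2 -0.78 ± 0.08). Mt2, a metal-binding metallothionein, had 98.3 and 97.6 CPM at 75 nM, against 170.5 and 164 CPM at 50 nM (log2 -0.77 ± 0.05). Of the rest, 6 fell by between 0.64 and 0.73 on the log2 scale: Abi2, an actin regulator, Bnip3, a mitophagy receptor, Elovl6, a fatty acid elongase, Erv3, Pdxk, the pyridoxal kinase, and Fam195a. None of these calls was lost under any of the alternatives run.

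**Figure D2:**
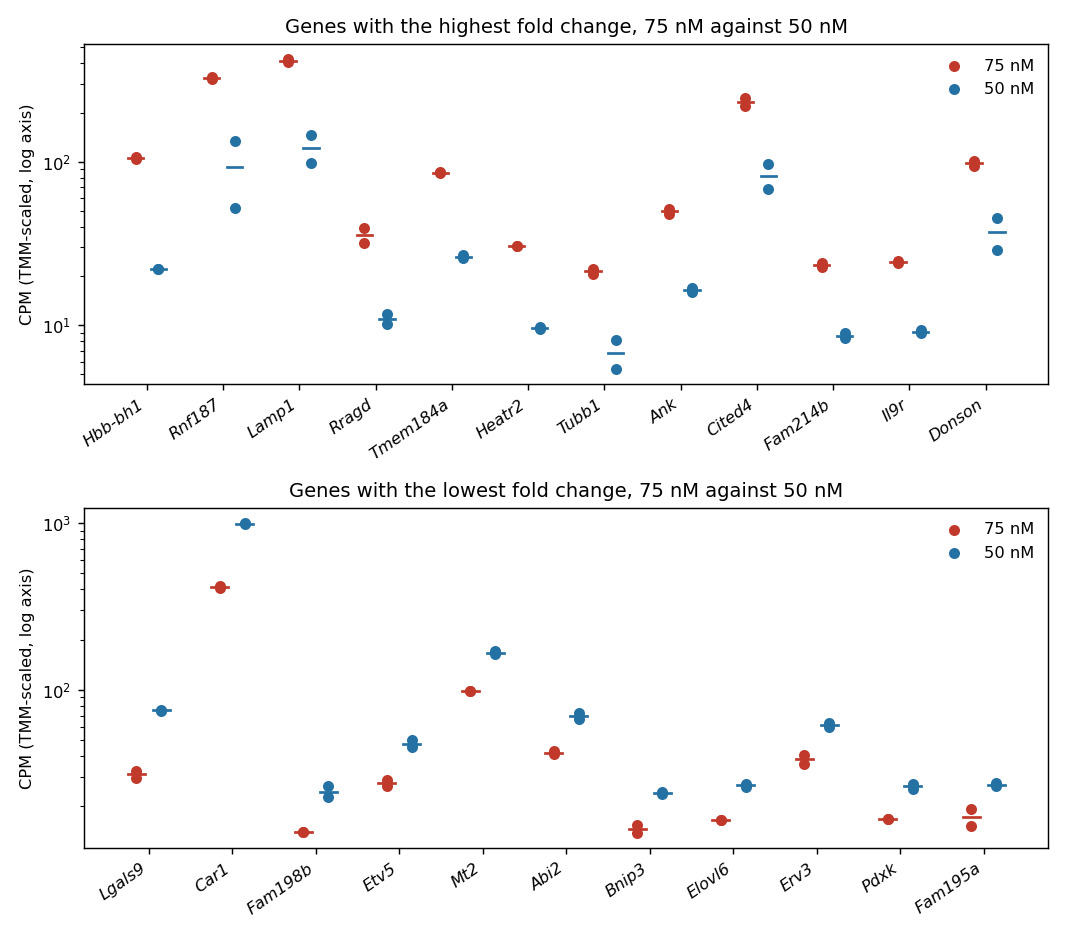
The level in CPM, on a log axis, is plotted for each library of the 12 genes with the highest fold change and 11 of those with the lowest, with 75 nM in red left of 50 nM in blue and a bar at each mean. As the naming rule requires, the doses do not overlap in any of the 23 genes, and the 50 nM points of Rnf187 (52.04 and 134 CPM) lie farther apart than its 75 nM points (332 and 322 CPM).

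Promoter sequences show what lies next to the start sites of genes that moved steeply at this dose step, 3 that rose and 1 that fell. Each is 300 bases long, 250 before and 50 after the start of the gene, and comes from RefSeq (GRCm38.p6). They cover chr11:58938857-58939156 (Rnf187, minus strand), chr8:13158911-13159210 (Lamp1, plus strand), chr4:32982748-32983047 (Rragd, plus strand) and chr11:78984875-78985174 (Lgals9, minus strand). Capitals mark CACGTG, the letters of an E-box, a motif chosen after the Lamp1 sequence was seen.
Rnf187: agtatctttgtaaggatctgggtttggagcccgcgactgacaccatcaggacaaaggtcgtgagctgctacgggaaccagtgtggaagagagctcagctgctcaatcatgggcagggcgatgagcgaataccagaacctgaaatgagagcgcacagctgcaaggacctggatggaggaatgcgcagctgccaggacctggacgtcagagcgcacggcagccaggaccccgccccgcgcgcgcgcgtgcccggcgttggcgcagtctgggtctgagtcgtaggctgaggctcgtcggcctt
Lamp1: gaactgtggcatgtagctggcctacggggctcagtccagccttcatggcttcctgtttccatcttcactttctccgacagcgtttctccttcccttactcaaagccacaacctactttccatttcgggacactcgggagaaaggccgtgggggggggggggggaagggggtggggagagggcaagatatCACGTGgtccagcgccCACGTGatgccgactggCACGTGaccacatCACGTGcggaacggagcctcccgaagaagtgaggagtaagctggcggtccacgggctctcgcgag
Rragd: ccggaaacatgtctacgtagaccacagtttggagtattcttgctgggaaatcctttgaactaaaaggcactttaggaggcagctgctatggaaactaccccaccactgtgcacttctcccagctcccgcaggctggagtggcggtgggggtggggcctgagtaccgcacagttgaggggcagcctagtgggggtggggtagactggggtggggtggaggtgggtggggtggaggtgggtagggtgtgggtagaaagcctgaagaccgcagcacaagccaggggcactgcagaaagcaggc
Lgals9: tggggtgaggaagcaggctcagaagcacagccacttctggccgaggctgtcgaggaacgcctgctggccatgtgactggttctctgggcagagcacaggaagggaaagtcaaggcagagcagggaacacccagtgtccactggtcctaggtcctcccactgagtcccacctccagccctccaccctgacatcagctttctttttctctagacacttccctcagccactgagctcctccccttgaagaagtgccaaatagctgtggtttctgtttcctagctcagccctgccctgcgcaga

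The Lamp1 window held 4 copies of CACGTG and the other 3 windows held none. Of 22862 promoters of genes with a single entry in the reference table, 7.12% held CACGTG at least once and 0.573% held 2 or more copies, overlaps with other motifs allowed. The core letters of a GATA site (AGATAA or its variants TGATAA and AGATAG and TGATAG, either strand) were in 30.7% of these promoters and in none of the 4 windows printed. Among the named genes with a single promoter, the GATA letters were found in 1 of 8 genes that rose (Il9r) and in 1 of 6 genes that fell (Erv3), and CACGTG in 1 of 8 genes that rose (Lamp1) and in 2 of 6 that fell (Bnip3 and Pdxk). GATA1 often acts from distal sites, which these windows do not cover.

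All 6 globin genes tested rose (median log2 fold change 1.35). Hba-a2, an adult alpha globin, had 2622 and 2674 CPM at 75 nM, against 1209.7 and 1313 CPM at 50 nM (log2 1.07 ± 0.03). Hbq1b, a theta globin, had 31.3 and 25.7 CPM at 75 nM, against 11.99 and 13.7 CPM at 50 nM (log2 1.15 ± 0.11). The embryonic zeta globin Hba-x was scarce, with 59 and 68 counts at 75 nM and 11 and 18 counts at 50 nM (log2 2.30 ± 0.28). The embryonic Hbb-y was scarcer still, with 17 and 12 counts at 75 nM and 7 and 4 counts at 50 nM (log2 1.56 ± 0.47). The symbol Beta-s, which carried most beta-globin reads and is outside the list, had 13695 and 13616 CPM at 75 nM, against 7102 and 6194 CPM at 50 nM (log2 1.04 ± 0.06). Embryonic and adult globins thus both rose, by about 4.78-fold for Hbb-bh1 and 2.05-fold for Beta-s. Globins together took 1.69% and 1.68% of counts at 75 nM, against 0.880% and 0.806% at 50 nM. Reads of near-identical globin copies can be split or dropped in counting, so values of single copies are uncertain.

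Of 15 heme synthesis genes, 13 rose and 1 fell, where 16.6% of all genes tested rose and 15.8% fell. The median log2 fold change of the list was 0.44. Alas2, the first and rate-limiting enzyme of heme synthesis in erythroid cells, had 817 and 826 CPM at 75 nM, against 314 and 327 CPM at 50 nM (log2 1.36 ± 0.03; edgeR adjusted p = 8.74e-35). The mitochondrial transporter Abcb10 (log2 0.71), Alad (0.55), the second enzyme of the pathway, and Fech (0.44), which inserts iron, followed. The gene that fell was Alas1, the housekeeping form of the first enzyme, with 6.38 and 6.38 CPM at 75 nM and 10.1 and 7.35 CPM at 50 nM (log2 -0.45), and its call was lost without 50 nM replicate 1 or either 75 nM library. In the fit of all libraries, the erythroid and housekeeping forms of the same enzyme were thus called in opposite directions.

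Of 20 membrane and skeleton genes of red cells, 19 rose and none fell (median log2 0.49). Slc4a1, the band 3 anion exchanger, had 1651 and 1681 CPM at 75 nM, against 662 and 667 CPM at 50 nM (log2 1.33 ± 0.03; edgeR adjusted p = 1.23e-35, the smallest among list members). Kel, a blood group antigen (log2 0.94), and Sptb, the erythroid beta spectrin (0.65), rose as well. The member not called was the glucose transporter Slc2a1. Of 14 genes of iron uptake and storage, 7 rose and 2 fell. Over all genes tested, 16.6% rose and 15.8% fell. Tfrc, the transferrin receptor, had 3068 and 3024 CPM at 75 nM, against 2089 and 2028 CPM at 50 nM (log2 0.57 ± 0.03), and Fam132b, the hormone erythroferrone, rose by 1.16 on the log2 scale. The 2 that fell were Tfr2, the second transferrin receptor (log2 -0.33), and Fth1, the ferritin heavy chain (-0.15).

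Most changes among transcription factors were small. Gata1 reads, from which the fusion and any endogenous transcript cannot be told apart, were at 1175 and 1216 CPM at 75 nM, against 1063 and 1152 CPM at 50 nM (log2 0.11 ± 0.07; edgeR adjusted p = 0.279). Gata2, whose protein GATA1 replaces at many sites, was at 69.3 and 71.0 CPM at 75 nM, against 68.9 and 87.3 CPM at 50 nM (log2 -0.15 ± 0.10; edgeR adjusted p = 0.268). The Gata2 libraries overlapped between the doses, and neither gene was called. For Gata2 this depended on the 50 nM libraries: without replicate 1 it was called (log2 -0.31; edgeR adjusted p = 0.00144), and without replicate 2 its value was 0.02 (edgeR adjusted p = 0.885). Of 21 erythroid transcription factors, 15 rose and 3 fell (median log2 0.33), and without 75 nM replicate 2 the number that rose was 9. Nfe2 (log2 0.57), Foxo3 (0.63), which acts late in erythroid maturation, Klf13 (0.43) and Klf1 (0.36), the activator of adult beta globin, had the smallest p-values. Klf1 was at 401 and 401 CPM at 75 nM, against 304 and 321 CPM at 50 nM. Among all genes tested, 16.6% rose and 15.8% fell, so the share of the 21 factors that fell was near that of all genes. The 3 that fell were Bcl11a (log2 -0.17), a repressor of embryonic and fetal globins, Myb (-0.32), which keeps progenitors dividing, and Ikzf1 (-0.13). None of the 3 was called without 50 nM replicate 2, and Myb also lost its call without 75 nM replicate 1.

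Of 11 progenitor transcription factors and receptors, 3 rose and 5 fell, where 16.6% of all genes tested rose and 15.8% fell. Myc fell, with 231 and 232 CPM at 75 nM and 299 and 289 CPM at 50 nM (log2 -0.34 ± 0.04), as did Kit, the stem cell factor receptor (-0.21), Hhex (-0.53), Cd44 (-0.34) and Myb. The genes that rose included ETS factors of other blood lineages: Sfpi1, which codes for PU.1, had 18.4 and 17.8 CPM at 75 nM, against 5.78 and 7.29 CPM at 50 nM (log2 1.47 ± 0.13). Fli1, which drives megakaryocyte genes, had 7.78 and 7.54 CPM at 75 nM, against 1.97 and 1.93 CPM at 50 nM (log2 1.97 ± 0.20). Both had higher levels in every 75 nM library than in any 50 nM library, and Runx1 rose less (log2 0.26).

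Of 8 megakaryocyte and platelet genes tested, 3 rose and none fell, where 16.6% of all genes tested rose and 15.8% fell. Itgb3, the platelet integrin beta-3, had 83.8 and 81.7 CPM at 75 nM, against 34.6 and 37.01 CPM at 50 nM (log2 1.21 ± 0.06), and Tubb1 and Gp9 rose by 1.66 and 1.10. The summed level of the 9 megakaryocyte markers was 104.6 and 104.5 CPM at 75 nM, against 53.3 and 54.6 CPM at 50 nM, while Ppbp and Vwf had no read in any of the 4 libraries. The part of other cells in these changes was not tested. The granulocyte markers tested, Fcgr3 and Cd68, were below 1 CPM and not called, and of 5 mast cell genes only Il1rl1 was called, with 9.61 and 9.56 CPM at 75 nM and 13.8 and 15.5 CPM at 50 nM (log2 -0.61). No lymphocyte, fibroblast or endothelial marker had enough reads to be tested. Among 6 textbook targets of the estrogen receptor itself, Ctsd and Xbp1 rose and Myb and Rara fell, and the count that fell dropped to 1 or 0 under 7 of the alternatives.

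Of 26 genes of cytokine receptors and Jak-Stat feedback, 10 rose and 3 fell, and 6 rose without 75 nM replicate 2. Csf2rb, the shared beta chain of the interleukin 3 and GM-CSF receptors, had 102 and 101 CPM at 75 nM, against 37.8 and 39.6 CPM at 50 nM (log2 1.39 ± 0.06), and reads shared with its paralogue Csf2rb2 make it uncertain. Bcl2l1, which codes for the survival protein BCL-XL and is induced by erythropoietin, had 202 and 217 CPM at 75 nM, against 128 and 122 CPM at 50 nM (log2 0.75 ± 0.04). The kinase Pim1 (0.55) and the feedback inhibitor Cish (0.47) rose too, while Stat5a (-0.34), Socs2 (-0.32) and Ptpn6 (-0.19) fell. Of 16 apoptosis regulators, 3 rose and 2 fell, shares near those of all genes tested (16.6% and 15.8%). Bcl2l1, Birc5 and Casp9 rose and Bid fell, and the Birc5 call was lost without 75 nM replicate 1 or 50 nM replicate 2.

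**Figure D3:**
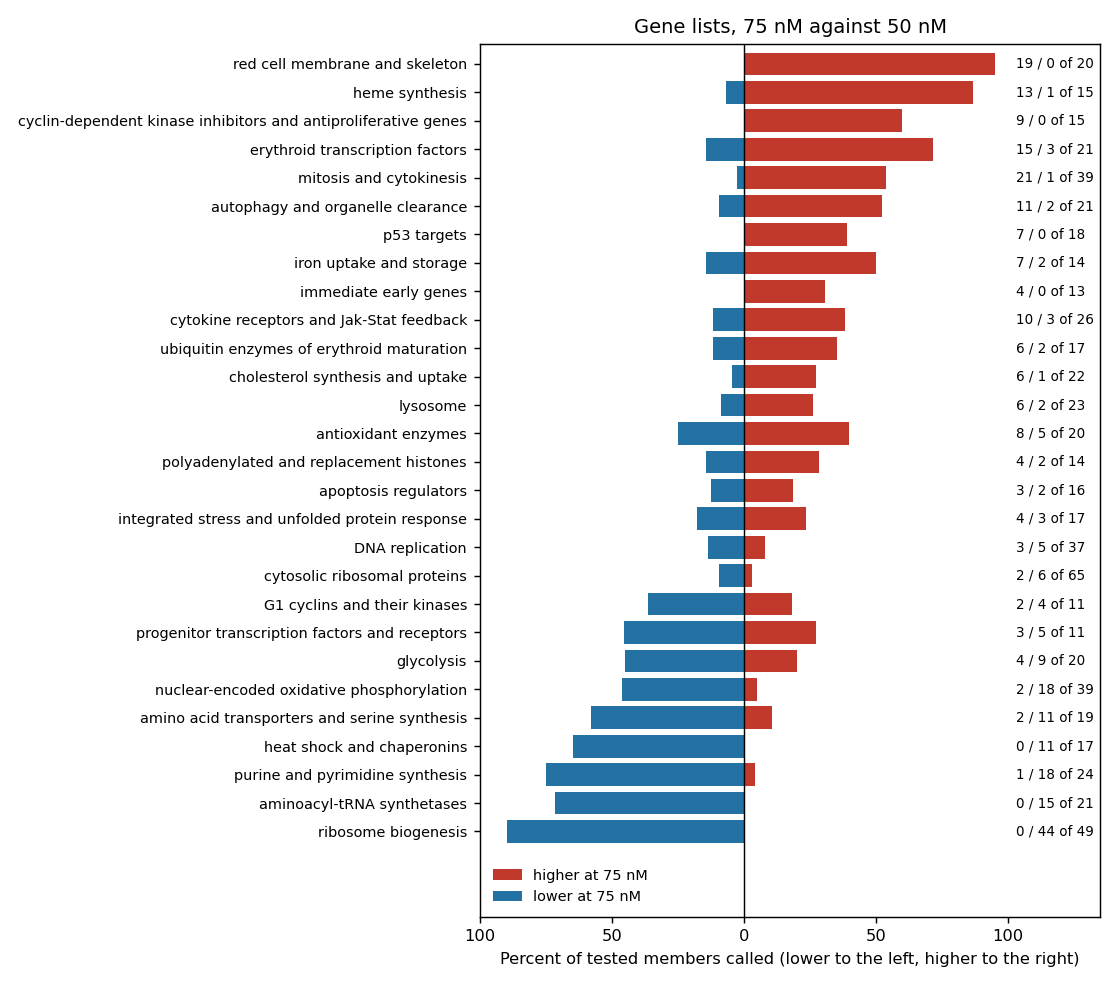
Bars give the percent of the tested members of each gene list (lists of at least 10 tested members) called higher at 75 nM than at 50 nM (red, to the right) or lower (blue, to the left), with the counts higher, lower and tested at the right edge. Red cell membrane genes (19 of 20 higher) stand at the top and ribosome biogenesis genes (44 of 49 lower) at the bottom.

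Cell cycle genes were grouped by role, and their counts stand beside 16.6% of all genes tested that rose and 15.8% that fell. Of 15 cyclin-dependent kinase inhibitors and antiproliferative genes, 9 rose and none fell (median log2 0.39). Btg2, an antiproliferative gene, had 214 and 200.2 CPM at 75 nM, against 119 and 111 CPM at 50 nM (log2 0.85 ± 0.04). Rb1, the retinoblastoma gene, had 109.5 and 108 CPM at 75 nM, against 50.2 and 57.9 CPM at 50 nM (log2 1.01 ± 0.09), and Cdkn1a, which codes for p21, and Mxd1, a MYC antagonist, rose by 0.39 and 0.70. Of 11 G1 cyclins and kinases, Ccnd3, the D cyclin used by late erythroid cells (log2 0.61), and Ccng2 (1.31) rose, while Ccnd2 (-0.26), Cdk4 (-0.22), Ccne1 (-0.14) and Cdk6 (-0.18) fell. Of 39 mitosis and cytokinesis genes, 21 rose and 1, the checkpoint kinase Bub1b, fell (median log2 0.13). Cdc25b, a phosphatase that starts mitosis, had 211 and 206 CPM at 75 nM, against 87.3 and 94.8 CPM at 50 nM (log2 1.19 ± 0.04). The proliferation marker Mki67 had 301 and 299 CPM at 75 nM, against 230.4 and 222 CPM at 50 nM (log2 0.41). Most DNA replication genes were not called: of 37, 3 rose (Cdc6, Cdc45 and Rfc2), 5 fell (Pold1, Orc2, Mcm10, Rfc1 and Uhrf1) and 29 did not pass the test, with a median of -0.01. Cdc6, at log2 0.20, and Mcm10, at -0.21, were the members called with the highest and lowest fold change. These shares are near or below those of all genes tested, and the Rfc2 call was lost with DESeq2, with library size alone and without 75 nM replicate 2 or 50 nM replicate 2. With library size alone, 9 fell. Of 18 p53 targets, 7 rose and none fell, led by Btg2 and by Trp53inp1 (log2 0.96).

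Genes for making ribosomes, nucleotides and proteins fell together by small amounts. Of 49 ribosome biogenesis genes, 44 fell and none rose (median log2 -0.24), against 15.8% of all genes tested. Wdr12, a factor of the large ribosomal subunit, had 280 and 276 CPM at 75 nM, against 370 and 361 CPM at 50 nM (log2 -0.39 ± 0.04). Nolc1, a nucleolar phosphoprotein (-0.34), Wdr43 (-0.35) and Polr1b, a subunit of RNA polymerase I (-0.44), fell with it. Of 65 cytosolic ribosomal protein genes, in contrast, 2 rose and 6 fell (median -0.02), although 23 fell with library size alone and 14 fell without 50 nM replicate 2. Of 21 aminoacyl-tRNA synthetases, 15 fell and none rose (median -0.16), with Lars, Kars, Farsb and Nars between -0.24 and -0.29. Of 24 genes of purine and pyrimidine synthesis, 18 fell and 1, Rrm1, rose (median -0.20). Gart, a purine synthesis enzyme, had 502 and 507 CPM at 75 nM, against 650.3 and 620.4 CPM at 50 nM (log2 -0.33 ± 0.03). Of 19 amino acid transporters and serine synthesis genes, 11 fell and 2 rose. Slc6a9, the glycine transporter that feeds heme synthesis, was 1 of the 2 that rose, with 89.7 and 86.9 CPM at 75 nM and 53.8 and 58.4 CPM at 50 nM (log2 0.65 ± 0.06).

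The list counts that follow stand beside 15.8% of all genes tested that fell and 16.6% that rose. Of 20 glycolysis genes, 9 fell and 4 rose (median log2 -0.20). Ldha, lactate dehydrogenase A, had 1496 and 1478 CPM at 75 nM, against 2040 and 2137 CPM at 50 nM (log2 -0.49 ± 0.03), and Pkm (-0.38) and Gpi1 (-0.33) fell as well. The 4 that rose were the glucose transporter Slc2a3, with 15.6 and 17.2 CPM at 75 nM and 4.38 and 3.92 CPM at 50 nM (log2 1.98 ± 0.16), Bpgm (0.49), which makes the 2,3-bisphosphoglycerate that tunes hemoglobin, Hk1 (0.14) and Pklr (0.10), the red cell pyruvate kinase. Of 39 nuclear genes of oxidative phosphorylation, 18 fell and 2 rose (median -0.08), and 11 fell without 50 nM replicate 1. Of 17 heat shock and chaperonin genes, 11 fell and none rose, led by Hspd1 (log2 -0.39) and Hspa9 (-0.32), mitochondrial chaperones. Of 20 antioxidant genes, 8 rose and 5 fell. Prdx2, an abundant red cell peroxidase, had 2064 and 2090 CPM at 75 nM, against 1460.3 and 1443 CPM at 50 nM (log2 0.52 ± 0.03), Gpx1 and Cat rose by 0.39 each, and the mitochondrial Sod2 fell by 0.36. Of 22 cholesterol genes, 6 rose, by at most 0.31, and 1, Dhcr7, fell.

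Of 21 autophagy genes, 11 rose and 2 fell (median log2 0.17), where 16.6% of all genes tested rose and 15.8% fell, but 7 rose without 75 nM replicate 2 and 6 without 50 nM replicate 2. Sqstm1, the cargo receptor p62, had 504 and 504 CPM at 75 nM, against 393 and 393 CPM at 50 nM (log2 0.36 ± 0.03). Gabarap (0.41), Bnip3l (0.29), the receptor for clearing mitochondria from reticulocytes, and Nbr1 (0.34) rose as well, while the related receptor Bnip3 fell by 0.71. Of 23 lysosome genes, 6 rose and 2 fell (median 0.04). The proteases Ctsb (0.65) and Ctsd (0.37) rose and Ctsl fell (-0.36), so Lamp1 was the only lysosome gene above 1. Of 17 ubiquitin enzymes of erythroid maturation, 6 rose and 2 fell. Those that rose included Trim10 (0.70), Ube2o (0.76) and Ube2h (0.85). Of 17 genes of the integrated stress and unfolded protein responses, 4 rose and 3 fell. Eif2ak1, the heme-regulated kinase HRI, had 266 and 272 CPM at 75 nM, against 182 and 177 CPM at 50 nM (log2 0.58 ± 0.04), and Ppp1r15a, which reverses its action on eIF2, rose by 0.66. Of 13 immediate early genes, Btg2, Dusp1 (0.85), Klf6 (0.65) and Jun (1.30) rose and none fell. Of 14 polyadenylated and replacement histone genes, 4 rose and 2 fell.

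The libraries at 200 and 0 nM, none of which enter the step, gave the direction of each gene over the whole dose range (80.0% of genes called, 40.5% higher and 39.5% lower). Of the 1672 genes that rose at 75 nM against 50 nM, 1550 (92.7%) were higher at 200 nM than at 0 nM, 28 (1.67%) were lower and 94 (5.62%) were not called. Of the 1588 genes that fell, 1502 (94.6%) were lower at 200 nM than at 0 nM, 38 (2.39%) were higher and 48 (3.02%) were not called. The share of the log2 distance between 200 and 0 nM was taken only for some genes. These were called in the step and, in the same direction, at 200 against 0 nM, with at least a 2-fold change there. In them the step covered a median of 22.6% in 1159 genes that rose and about 18% in 903 genes that fell. Asking for a call in the step favours genes with a large share, so these medians do not hold for all genes. Among genes of at least 20 CPM that rose against the range, Kcnq1ot1, a long noncoding RNA that silences imprinted genes, moved most. It lies at chr7:143203458-143296549 on the minus strand and had 64.3 and 59.1 CPM at 75 nM, against 33.1 and 37.3 CPM at 50 nM (log2 0.81 ± 0.08). At 200 against 0 nM its log2 fold change was -0.34, which rests on the 0 nM libraries (56.7 and 63.4 CPM), since it was at 24.9 and 23.6 CPM at 12.5 nM and at 45.7 and 49.3 CPM at 200 nM. It overlaps Kcnq1 on the other strand, so that reads of the pair cannot be told apart in unstranded data. Whsc1, a histone methyltransferase, had 130 and 124 CPM at 75 nM, against 96.3 and 95.6 CPM at 50 nM (log2 0.41 ± 0.05), and -0.55 at 200 against 0 nM. Wbscr16 (0.45), Pcgf6 (0.40), a Polycomb subunit, and the ETS factor Elf4 (0.38) also rose against their direction over the range. Of the named genes that went the other way, Ctsl fell by 0.36, Spns1, a lysosomal lipid transporter, by 0.34, Smg9, a factor of nonsense-mediated decay, by 0.31, Frat1, which binds GSK3, by 0.27 and Pgd, of the pentose phosphate pathway, by 0.26 on the log2 scale. The calls of Wbscr16, Pcgf6, Elf4, Ctsl and Smg9 were lost under at least 1 alternative.

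**Figure D4:**
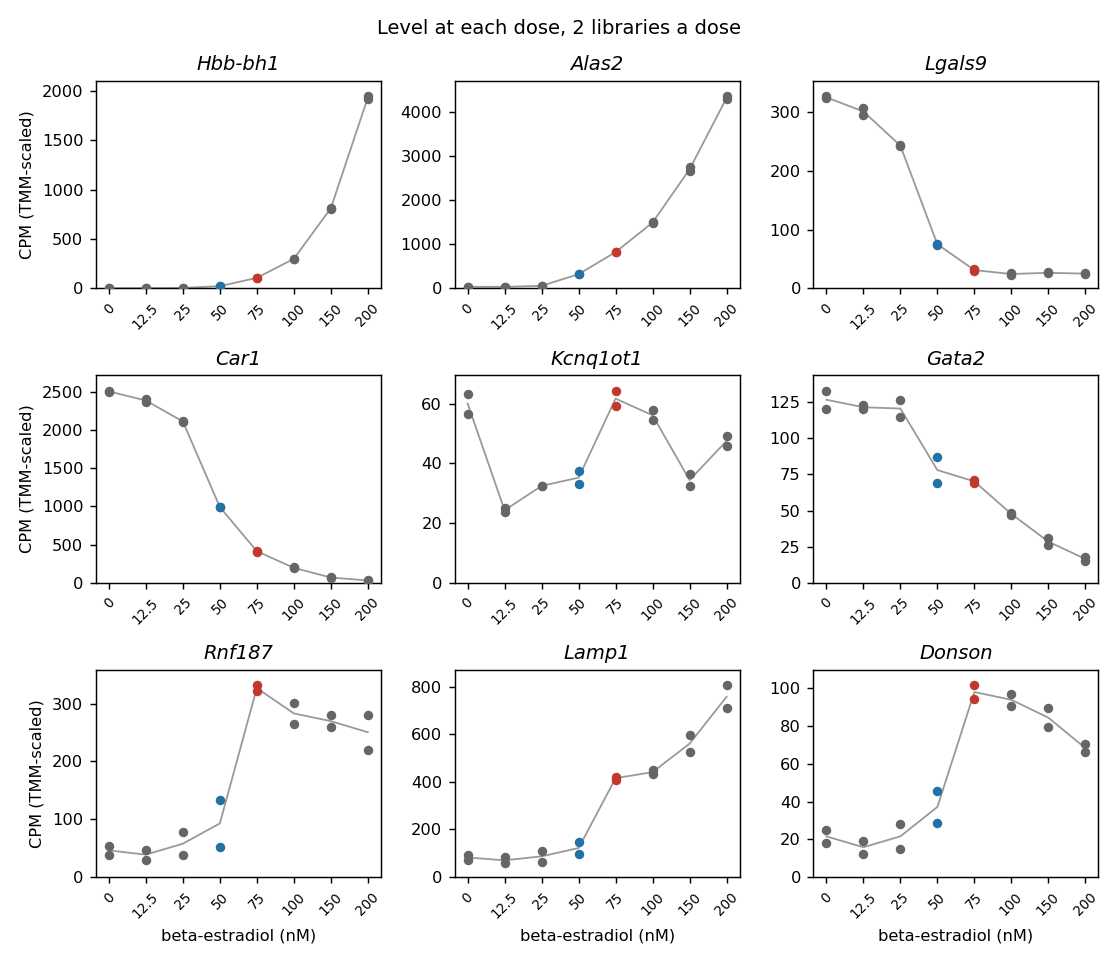
The level in CPM is plotted at each of the 8 doses for 9 genes, with 2 libraries a dose, 75 nM in red, 50 nM in blue, equal spacing between doses that are unequally spaced in nM, and a grey line through the means. Hbb-bh1 goes on rising to 1932 CPM at 200 nM, whereas Lgals9 is at 30.99 CPM at 75 nM and 25.0 CPM at 200 nM.

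The dose step from 50 to 75 nM was also set against the step from 100 to 150 nM, which raises the dose by the same ratio and shares no library with it. At 150 nM against 100 nM, 2081 genes (20.6%) rose and 2039 (20.2%) fell, together 40.9% of genes tested. The test of the difference between the steps called 1477 genes (14.7%), of which 941 (9.34%) had a higher log2 fold change at 75 nM against 50 nM and 536 (5.32%) a lower one. With library size alone, 1173 were higher and 398 lower, a share of 74.7% on the higher side, against 63.7% with TMM scaling. With DESeq2, 553 were higher and 434 lower, a share of 56% on the higher side. Red cell lists varied in how many members were called in this difference. Of 6 globin genes, 3 had a higher difference and none a lower one. Of 15 heme synthesis genes, 9 had a higher difference and none a lower one, and of 20 membrane and skeleton genes 7 had a higher and 1 a lower one. Of 14 iron genes, 5 had a higher and 4 a lower difference, and of 21 erythroid transcription factors 2 had a higher and 1 a lower one. Mt2 fell by 0.77 at 75 nM against 50 nM and by 1.55 at 150 nM against 100 nM.

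Genes of DNA replication, ribosome biogenesis and nucleotide synthesis fell less at 75 nM against 50 nM than at 150 nM against 100 nM. Of 37 DNA replication genes, 34 fell at 150 nM against 100 nM, whereas 5 fell at 75 nM against 50 nM, and the difference was called, and higher, in 30 of the 37. Of 49 ribosome biogenesis genes, the difference was called in 31 and was higher in all 31. In purine and pyrimidine synthesis it was higher in 20 of 24 genes and lower in 1, Impdh1. Among aminoacyl-tRNA synthetases it was higher in 4 of 21 and lower in none. Among 65 cytosolic ribosomal protein genes it was higher in none and lower in 2. Over all genes tested, it was higher in 9.34% and lower in 5.32%. On the other side, the difference was lower in 9 of 18 p53 targets, 8 of 23 lysosome genes and 6 of 21 autophagy genes. At 150 nM against 100 nM, 13 p53 targets, 13 lysosome genes and 16 autophagy genes rose. These are counts of single-gene tests, and the lists themselves were not tested.

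Heading the difference among the named genes was Heatr2, which moved at 75 nM against 50 nM and hardly at 150 nM against 100 nM. Heatr2 had a log2 fold change of 1.67 at 75 nM against 50 nM and -0.05 at 150 nM against 100 nM, a difference of 1.72 ± 0.21 (edgeR adjusted p = 1.26e-06). It averaged 19.9 CPM at 200 nM and 9.56 CPM at 0 nM. Kif7, a kinesin of Hedgehog signalling, had 20.9 and 19.9 CPM at 75 nM, against 7.42 and 8.35 CPM at 50 nM, and a difference of 1.38 ± 0.20. Kcnq1ot1 rose at 75 nM against 50 nM and fell by 0.72 at 150 nM against 100 nM, with a difference of 1.53 ± 0.11. Donson (1.56 ± 0.39) and Lamp1 (1.41 ± 0.34) also had a high difference, but both lost the call in 7 of 8 fits that left out a single library. Gata2 was not called in the step and fell by 0.73 at 150 nM against 100 nM, with a difference of 0.57 ± 0.16. Whether the call of this difference held under the alternatives was not checked. At the lowest end, Ces2g, a carboxylesterase, had 8.27 and 9.56 CPM at 75 nM, against 13.7 and 13.2 CPM at 50 nM, but rose by 0.87 at 150 nM against 100 nM (difference -1.46 ± 0.18). Lgals9 fell by 1.28 at 75 nM against 50 nM and was at 0.11 on the log2 scale at 150 nM against 100 nM (difference -1.39 ± 0.10). It averaged 326 CPM at 0 nM, 24.3 CPM at 100 nM and 25.0 CPM at 200 nM, so most of its fall lay at or below 75 nM. Crip2 and Zyx, LIM-domain proteins, were not called in the step and rose by 0.82 and 0.83 at 150 nM against 100 nM.

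**Figure D5:**
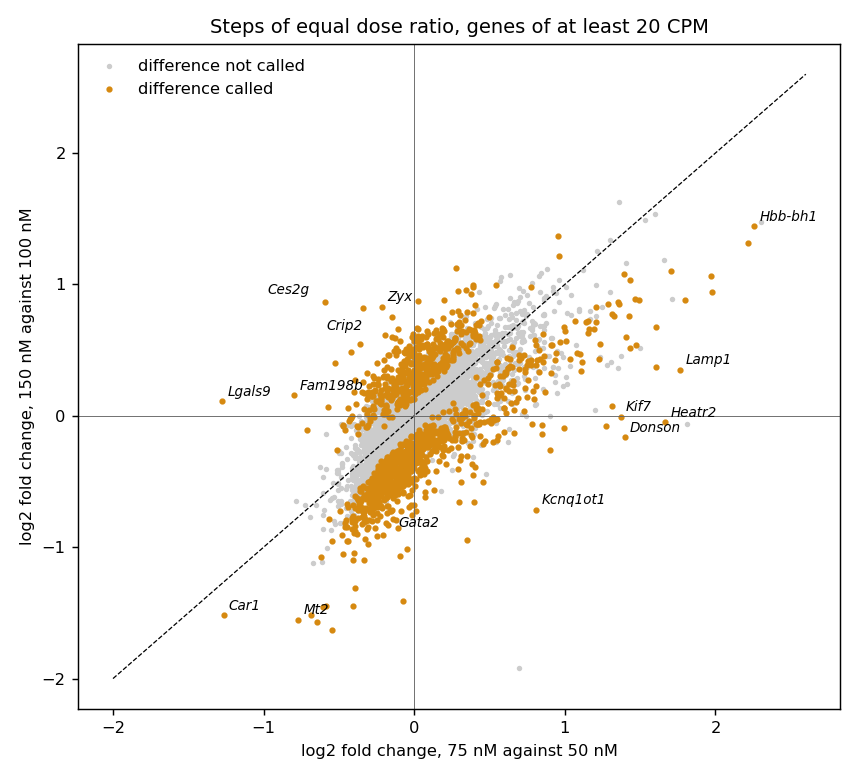
Each point is a gene of at least 20 CPM, with the log2 fold change at 75 nM against 50 nM on the horizontal axis, that at 150 nM against 100 nM on the vertical axis, and genes whose difference was called in orange (1330 of 6473 drawn). Lamp1, Heatr2 and Donson lie right of the dashed line of equal change, and Lgals9 and Ces2g left of it.

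The neighbouring steps share libraries with this one, so their values are only set side by side. At 50 nM against 25 nM, 1424 genes (14.1%) rose and 1215 (12.1%) fell, and at 100 nM against 75 nM 1480 (14.7%) rose and 1293 (12.8%) fell. In this order, 50 against 25, 75 against 50, 100 against 75 and 150 against 100 nM, Hbb-bh1 had log2 fold changes of 3.11, 2.26, 1.503 and 1.44. Rnf187 had 0.67, 1.81, -0.21 and -0.07, and Donson 0.77, 1.40, -0.06 and -0.16. Lgals9 had -1.70, -1.28, -0.35 and 0.11, and Car1 had -1.09, -1.27, -1.08 and -1.52. The steps differ in dose ratio, so these values are not rates. The globin, Lgals9 and Car1 values thus moved in several steps, while Rnf187 and Donson had their highest value at 75 nM against 50 nM.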

How the data were processed

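Raw read counts per gene symbol, as deposited by the authors, were used for all 16 libraries (G1E-ER4 cells, 8 doses, 2 replicates each). The submitters' processing notes name STAR, bcl2fastq and the build mm10, without versions, counting program or annotation. Genes were kept by filterByExpr (10080 of 23410), scaled by TMM and fitted with edgeR 4.0.16 (R 4.3.3; limma 3.58.1), dose as an 8-level factor, robust quasi-likelihood F test, 8 residual degrees of freedom, and Benjamini-Hochberg adjustment over all genes tested in each contrast; an adjusted p under 0.05 was a call. Levels are TMM-scaled CPM computed from those counts, so levels of different genes are not compared. The SE is the log2 fold change divided by the root of F. Counting precision covers read sampling only, since reads without molecular identifiers are not independent molecules.

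The genes named were the 12 with the highest and the 12 with the lowest log2 fold change among those called that averaged 20 CPM or more at the dose of higher mean, with the same direction in all 4 pairings; the 5 highest and 5 lowest of those against the direction at 200 nM against 0 nM, and of the difference between the steps; up to 4 members per list by p; and Gata1 and Gata2. Other members are named where few of a list were called, and Beta-s and Hbb-y for globin type; these were chosen after their values were seen. Some genes that meet these rules are not reported here. Unnamed models, pseudogenes, mitochondrial and ribosomal RNA genes are counted, not named. The members and the 36 lists (781 entries, 773 in the table, 671 tested) were chosen with earlier results of these data known. The scripts were tested on simulated data. Alternatives were DESeq2 1.42.0, library size alone, 2 other filters, a replicate block, only the libraries compared, each library left out and, added after seeing the data, a fit without Rn45s. Positions are from the GENCODE annotation of GRCm38; a gene without a matching symbol there has none printed.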

Additional observations from a re-analysis of the deposited data

Results flagged for a closer look

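The step from 50 to 75 nM and the step from 100 to 150 nM raise the dose by the same ratio, and 1477 genes differed between them by edgeR's quasi-likelihood test of the difference at an adjusted p under 0.05. The differences below are the log2 fold change at 75 nM against 50 nM minus that at 150 nM against 100 nM, and each passed that test. Among the named genes the difference was positive for Heatr2 1.72, Donson 1.56, Kcnq1ot1 1.53, Lamp1 1.41, Kif7 1.38, Ank 1.24, Pcgf6 1.06, Wbscr16 0.96, Fam195a 0.93, Erv3 0.83, Hbb-bh1 0.82, Whsc1 0.79, Mt2 0.78, Il9r 0.66, Tmem184a 0.61, Gata2 0.57, Elf4 0.54, Fam214b 0.40, Car1 0.25. It was negative for Ces2g -1.46, Lgals9 -1.39, Crip2 -1.16, Zyx -1.04, Fam198b -0.95, Ctsl -0.90, Bnip3 -0.61, Spns1 -0.60, Frat1 -0.55, Pgd -0.46. Car1, Mt2, Erv3 and Fam195a fell in both steps, and fell less at 75 nM against 50 nM. Whether the call of the difference held under the alternatives was checked for 10 genes only. These were Heatr2, Donson, Kcnq1ot1, Lamp1, Kif7, Ces2g, Lgals9, Crip2, Zyx and Fam198b. Of these, Donson and Lamp1 lost the call in 7 of the 8 fits without a single library. For the remaining genes listed, among them Gata2, Elf4, Bnip3 and Fam214b, it was not checked. The cause of these differences was not tested.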

How the results depend on the processing

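The number of genes called at 75 nM against 50 nM was 3260 and ranged from 2352 to 2781 when 1 of the 4 libraries was left out, the lowest without 75 nM replicate 1. It was 654 when a change of at least 1.5-fold was also asked for. DESeq2 called 2605 and library size alone 3488. For the difference between the steps, 1477 genes were called, 987 by DESeq2, and 1023 to 1300 without a single library, and for 200 nM against 0 nM 8063 were called and 7642 to 7697 without a single library. The replicate block gave 3196, 1422 and 8048 calls. The replicate numbers share no stated source, and the deviations of same-numbered libraries at 75 and 50 nM had a correlation of -0.081 over genes, so the block was not used for pairing. Of 158 step genes named by rule, 16 lost their call under at least 1 alternative, and of 10 difference genes 2 did. The 158 include genes that had no call to lose, such as Gata1, Gata2 and Cd68. Genes named after their values were seen, such as Alas1, Bcl11a and Ikzf1, are not among them. Leaving out a single library gave Gata2 log2 fold changes of -0.315 to 0.0215, Gzmb -0.447 to 0.0738 and Hdc -0.704 to 2.997. Their sign turned without 50 nM replicate 2 (Gata2 and Gzmb) or replicate 1 (Hdc), and the cause was not tested. Gata1 was called with only the 4 libraries compared (0.11, edgeR adjusted p = 0.0218), and Gata2 without 50 nM replicate 1 (-0.31, edgeR adjusted p = 0.00144) and with no filter on low counts (-0.17, edgeR adjusted p = 0.0319). The median log2 fold change of all genes moved by less than 0.1 under each alternative. Depth limits the embryonic globins Hbb-y and Hba-x, with 4 to 18 counts at 50 nM.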

Other observations

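Rnf187 was singled out after its values were seen, because its 50 nM libraries lay apart. Replicates of it also lay apart at other doses, and 45 genes had replicate differences that ran with those of Rnf187 over the 6 doses other than 75 and 50 nM (cosine above 0.9), among them Lamp1 and Cited4. Of these 45 genes, 26 rose and 2 fell at 75 nM against 50 nM, with a median log2 fold change of 0.36. Among 6107 other genes, 20.2% rose and the median was -0.02, and of all genes tested 15.8% fell. How many genes would pass a cosine of 0.9 over 6 doses by chance was not tested. The geometric mean of the 45 was 107.5 and 107.3 CPM at 75 nM, against 74.2 and 85.2 CPM at 50 nM. It was between 55.5 and 73.6 CPM at 0 to 25 nM and between 109 and 126.5 CPM at 100 to 200 nM. These are descriptions over libraries that share a series, and what the 45 genes have in common was not tested.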
